A study of Mus musculus with 6 samples.

Results

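The aminoacyl-tRNA synthetases are the enzymes that load each amino acid onto its tRNA. Members were the rows of the deposited expression table whose symbol equals a fixed list of 36 names, 20 of enzymes that serve the cytosol and 16 of enzymes that serve mitochondria, out of 19233 genes in the table. All 36 had a row. The RNA was taken from polysomes, mRNAs loaded with several ribosomes and separated from the rest of the lysate, of RAW264.7 cells, a transformed mouse line of macrophage character. All 6 libraries are titled M2, the alternatively activated macrophage state. For 3 libraries the cells had received BMH-21, which blocks RNA polymerase I and so the making of ribosomal RNA, at 500 nM for 24 h from 24 h after polarization, and for the other 3 the solvent DMSO alone. The labels describe polarization for bone-marrow-derived macrophages, with IL-4 at 20 ng/ml or with interferon gamma and LPS at 50 ng/ml each, and do not state the agent used on the line itself. The comparison asked how inhibition of RNA polymerase I changed the polysome-bound mRNAs, and values here are FPKM, read levels corrected for the length of the transcript and the size of the library. No unfractionated RNA was used here, so the amount of an mRNA in the cell and the share of it on polysomes cannot be told apart, nor can fewer cells and less RNA per cell.

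Each synthetase recognises its amino acid and its tRNAs, activates the amino acid with ATP and transfers it to the tRNA end, so the set of enzymes fixes the reading of the genetic code. Cytosolic enzymes feed the ribosomes of the cytosol, and several of them sit in the multisynthetase complex, held together by the scaffold proteins AIMP1, AIMP2 and EEF1E1 (also called AIMP3). Mitochondria use a separate set of nuclear-encoded enzymes, imported to charge the tRNAs encoded in the mitochondrial genome, except that the Gars and Kars genes each give a cytosolic and a mitochondrial form. Uncharged tRNA activates the kinase GCN2, and its downstream transcription factor ATF4 is known to raise many of the cytosolic synthetase genes.

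Libraries correlated within a group at 0.997 or more on log2(FPKM + 1) across genes, and between groups at 0.963 to 0.964. The estimated depth was 21620000 to 24080000 reads in DMSO and 18780000 to 22560000 reads in BMH-21. All 8 macrophage markers examined had values above 0 in every library, and their summed level was 10810 to 11209 FPKM in DMSO and 18582 to 19797 FPKM in BMH-21, most of it the lysozyme gene Lyz2. Of the 8, 5 were called higher and 3 lower, beside 19.9% and 58.4% of all tested genes. The 3 lower were Adgre1, Fcgr1 and Csf1r, which kept 55.7%, 46.7% and 87.5% of their DMSO mean. Of 8 markers of other cell types 5 had a row, with a summed level of 0.0453 to 5.99 FPKM in DMSO and 6.92 to 9.29 FPKM in BMH-21. Nearly all of that was the epithelial keratin gene Krt18, at 0, 0.0644 and 5.47 FPKM in DMSO libraries 1, 2 and 3 and at 8.89, 6.41 and 8.09 FPKM in BMH-21. The epithelial marker Epcam was at 0, 0 and 0.483 FPKM in DMSO and at 0.388 to 0.635 FPKM in BMH-21, while the fibroblast gene Col1a1 and the endothelial gene Pecam1 stayed at or below 0.0355 FPKM. DMSO library 3 thus stood with the BMH-21 libraries on Krt18 and Epcam. The part of these marker shifts in the synthetase values was not tested, other than by leaving libraries out. Without DMSO library 3 the counts of synthetases called lower were 20 cytosolic and 11 mitochondrial, as with it, beside 56.5% of all tested genes. A fit against DMSO library 3 alone was chosen after seeing the data. Its median log2 changes were −0.81 for the cytosolic and −0.54 for the mitochondrial set, beside −0.23 for all tested genes. No spread between DMSO libraries could be measured there.

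Polysome-bound mRNAs of the cytosolic synthetases were lower with BMH-21 throughout the set as deposited, and for all but Farsa, Farsb and Mars1 under every scaling tried. All 20 passed the filter of at least 1 FPKM in at least 3 libraries, and limma called all 20 lower at an adjusted p under 0.05, where it called 58.4% of all 9748 tested genes lower and 19.9% higher, 78.3% in all. The BMH-21 values of all 20 lay wholly under the DMSO values, a separation seen downward in 59.5% of tested genes, upward in 20.3% and either way in 79.8%. The median change was −0.80 on log2(FPKM + 1), beside −0.23 for all tested genes, and 19 of 20 members lay below the all-gene median, 16 of them among the 2437 lowest changes. Summed over the 20 genes, the level was 527, 538 and 528 FPKM in the DMSO libraries and 273, 272 and 278 FPKM in the BMH-21 libraries, a share of the table's total that went from 0.153% to 0.159% down to 0.0735% to 0.0744%. The all-gene median moved with the scaling, and was 0.013 once libraries were scaled by median ratio, −0.034 by upper quartile, 0.0045 by quantile normalization and −0.33 by equal column totals. Under the first 3 of these the called split of all genes was 34.9% lower and 38.6% higher, 39.5% and 34.6%, and 35.9% and 36.3%. Under the same 3 scalings, 17 of 20 cytosolic members were still called lower, the exceptions being Farsa, Farsb and Mars1, and Farsb was called higher with median-ratio scaling. Relative to the all-gene median, the cytosolic median was −0.56 as deposited and −0.53 to −0.58 under the 4 scalings.

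**Figure D1:**
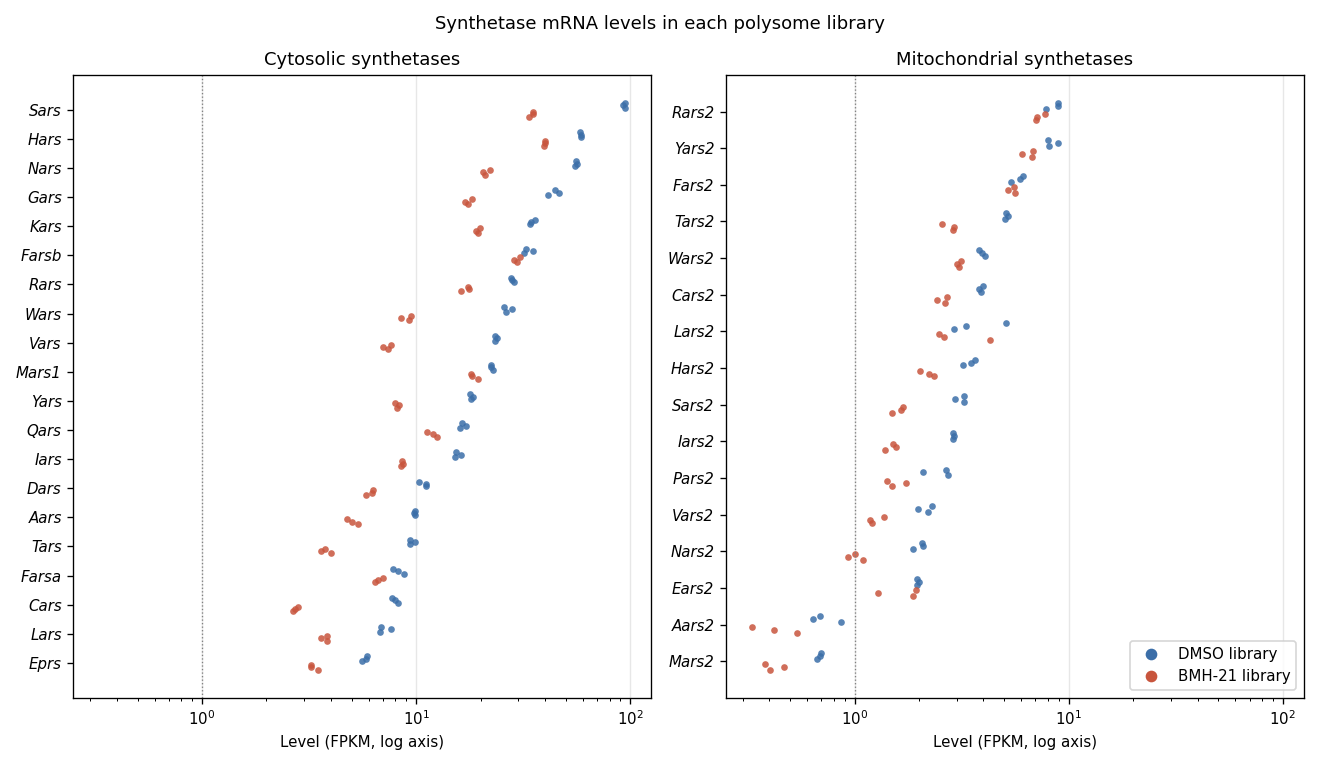
Level of each synthetase mRNA in each library, in FPKM on a log axis, with cytosolic enzymes on the left and mitochondrial enzymes on the right, ordered by DMSO mean. Each point is 1 library, blue for DMSO and red for BMH-21, and the dotted line marks 1 FPKM. For all 20 cytosolic genes the 3 red points lie left of the 3 blue points, from Sars at 93.8 FPKM in DMSO down to Eprs at 5.77 FPKM.

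The largest falls were those of 8 enzymes that passed a change of at least 2-fold on log2(FPKM + 1), a size called lower in 5.24% of all tested genes. Positions in brackets are whole genes, exons and introns, in GENCODE M21 on GRCm38, and which exons the values cover is not given. Vars (chromosome 17, 35000987 to 35016322), which charges valine, was at 23.4, 23.7 and 23.4 FPKM in the DMSO libraries and 7.37, 7.03 and 7.59 FPKM in the BMH-21 libraries. Wars, the tryptophan enzyme, which interferon gamma also induces, was at 26.4, 28.05 and 25.7 FPKM in the DMSO libraries and 9.29, 8.47 and 9.48 FPKM in the BMH-21 libraries. Sars, the serine enzyme and the most abundant synthetase mRNA in DMSO (chromosome 3, 108424865 to 108445209), was at 94.5, 92.3 and 94.5 FPKM in the DMSO libraries and 33.8, 35.3 and 35.2 FPKM in the BMH-21 libraries. These 3 kept 31.2%, 34.0% and 37.1% of their DMSO mean, and their replicates lay close together beside the gap between groups. Their log2 changes were −1.56 ± 0.043 (SE, limma adjusted p = 1.82e-09) for Vars, −1.46 ± 0.053 (SE, limma adjusted p = 7.66e-09) for Wars and −1.41 ± 0.037 (SE, limma adjusted p = 1.42e-09) for Sars.

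The asparagine enzyme Nars (chromosome 18, 64499647 to 64516652) was at 55.2, 56.5 and 55.6 FPKM in the DMSO libraries and 20.9, 20.6 and 22.1 FPKM in the BMH-21 libraries. Gars (chromosome 6, 55038007 to 55079500), whose product loads glycine in the cytosol and in mitochondria, was at 41.4, 46.7 and 44.6 FPKM in the DMSO libraries and 17.5, 16.98 and 18.1 FPKM in the BMH-21 libraries. The cysteine enzyme Cars was at 8.19, 7.94 and 7.71 FPKM in the DMSO libraries and 2.67, 2.71 and 2.804 FPKM in the BMH-21 libraries. In each, the groups lay far apart beside their spread, and Cars became the least abundant cytosolic member. Their log2 changes were −1.35, −1.29 and −1.26, with limma adjusted p of 2.63e-09, 1.19e-08 and 9.7e-09. The threonine enzyme Tars went from 9.55 ± 0.31 to 3.79 ± 0.21 FPKM (SD, n = 3), a log2 change of −1.14 ± 0.051 (SE, limma adjusted p = 2.89e-08). The tyrosine enzyme Yars went from 18.2 ± 0.29 to 8.14 ± 0.19 FPKM (SD, n = 3), a log2 change of −1.07 ± 0.041 (SE, limma adjusted p = 1.1e-08). The 8 enzymes with falls of this size are all outside the multisynthetase complex.

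The 8 enzymes of the multisynthetase complex fell within a narrower band, from −0.80 to −0.27, with a median of −0.71, and 0 of 8 reached the 2-fold size, while the 12 cytosolic enzymes outside it ran from −1.56 to −0.16 with a median of −1.20. No test of the difference between these groups was made. Kars (chromosome 8, 111993443 to 112011323), the lysine enzyme of the cytosol and of mitochondria and the most abundant of the 8 in DMSO, was at 33.98, 34.3 and 35.8 FPKM in the DMSO libraries and 19.4, 19.1 and 19.9 FPKM in the BMH-21 libraries. Its log2 change was −0.80 ± 0.040 (SE, limma adjusted p = 5.47e-08). Next in size were the falls of the isoleucine enzyme Iars, from 15.6 ± 0.54 to 8.58 ± 0.13 FPKM, and the leucine enzyme Lars, from 7.09 ± 0.46 to 3.75 ± 0.14 FPKM (SD, n = 3). Their log2 changes were −0.79 and −0.77 (limma adjusted p = 1.06e-07 and 7.39e-07). Dars for aspartate went from 10.8 to 6.09 FPKM and Rars for arginine from 28.1 to 17.1 FPKM, at log2 changes of −0.74 and −0.69. Eprs (chromosome 1, 185363044 to 185428360), a fused enzyme that charges glutamate and proline, was the lowest of the cytosolic set in DMSO and went from 5.77 to 3.31 FPKM, a log2 change of −0.65. Qars for glutamine went from 16.6 to 11.9 FPKM (−0.45).

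Mars1 (chromosome 10, 127296221 to 127311786), the methionine enzyme that also charges the initiator tRNA, changed least within the complex. It was at 22.9, 22.4 and 22.4 FPKM in the DMSO libraries and 19.4, 18.2 and 18.1 FPKM in the BMH-21 libraries, and the groups did not overlap although the gap was small. Its log2 change was −0.27 ± 0.042 (SE, limma adjusted p = 0.000173), close to the all-gene median, and the call was lost when libraries were scaled by median ratio (0.010), by upper quartile (−0.045) or by quantiles (−0.046). The annotated exons of Mars1 share 68 bases with the opposite-strand gene Ddit3, which is 1.99% of its exonic bases.

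Among the cytosolic enzymes outside the complex, 4 moved less than 2-fold. Aars (chromosome 8, 111033144 to 111057664), which charges alanine, was at 9.899, 9.74 and 9.93 FPKM in the DMSO libraries and 5.36, 5.03 and 4.74 FPKM in the BMH-21 libraries, a log2 change of −0.85 ± 0.050 (SE, limma adjusted p = 1.76e-07). Aars shares 14.3% of its annotated exonic bases with Exosc6 on the same strand. Hars (chromosome 18, 36766528 to 36783205), the histidine enzyme, was at 59.1, 59.02 and 58.4 FPKM in the DMSO libraries and 39.3, 39.98 and 40.1 FPKM in the BMH-21 libraries, a log2 change of −0.55 ± 0.035 (SE, limma adjusted p = 2.85e-07). It kept 67.7% of its DMSO mean and became the most abundant synthetase mRNA in BMH-21. The cytosolic phenylalanine enzyme is built of 2 kinds of subunit, encoded by Farsa and Farsb, and these were 2 of the 3 smallest changes of the set. Farsa was at 8.76, 8.26 and 7.76 FPKM in the DMSO libraries and 6.42, 6.64 and 7.02 FPKM in the BMH-21 libraries, a log2 change of −0.27 ± 0.055 (SE, limma adjusted p = 0.0012). Farsb (chromosome 1, 78417975 to 78488897) was at 32.1, 35.05 and 32.7 FPKM in the DMSO libraries and 29.5, 28.7 and 30.7 FPKM in the BMH-21 libraries, a log2 change of −0.16 ± 0.046 (SE, limma adjusted p = 0.0091). Both calls rest on the scaling, since under median-ratio, upper-quartile and quantile scaling Farsa was at −0.0061, −0.057 and 0.012, and Farsb at 0.13, 0.069 and −0.022. Farsb shares 9.47% of its exonic bases with Sgpp2 on the opposite strand.

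The order of abundance changed with treatment. In DMSO the highest cytosolic levels were Sars at 93.8 FPKM, Hars at 58.8, Nars at 55.7 and Gars at 44.2, which together made 47.6% of the summed level. In BMH-21 the order ran Hars at 39.8 FPKM, Sars at 34.8, Farsb at 29.6, Nars at 21.2 and Kars at 19.5. Vars went from rank 9 to rank 13 and Cars from 18 to 20, while Mars1 went from rank 10 to rank 6. Of the 19 neighbouring pairs in each order, 14 did not overlap between libraries. The overlapping 5 in DMSO were Kars with Farsb, Rars with Wars, Qars with Iars, Aars with Tars and Farsa with Cars, whose order is not resolved by these libraries. In BMH-21 they were Kars with Mars1, Mars1 with Gars, Gars with Rars, Wars with Iars and Tars with Lars, so the rank of Mars1 there is not resolved either. Across the 20 genes the Spearman correlation of DMSO level with change was −0.24, a description of genes that share the same 6 libraries.

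**Figure D2:**
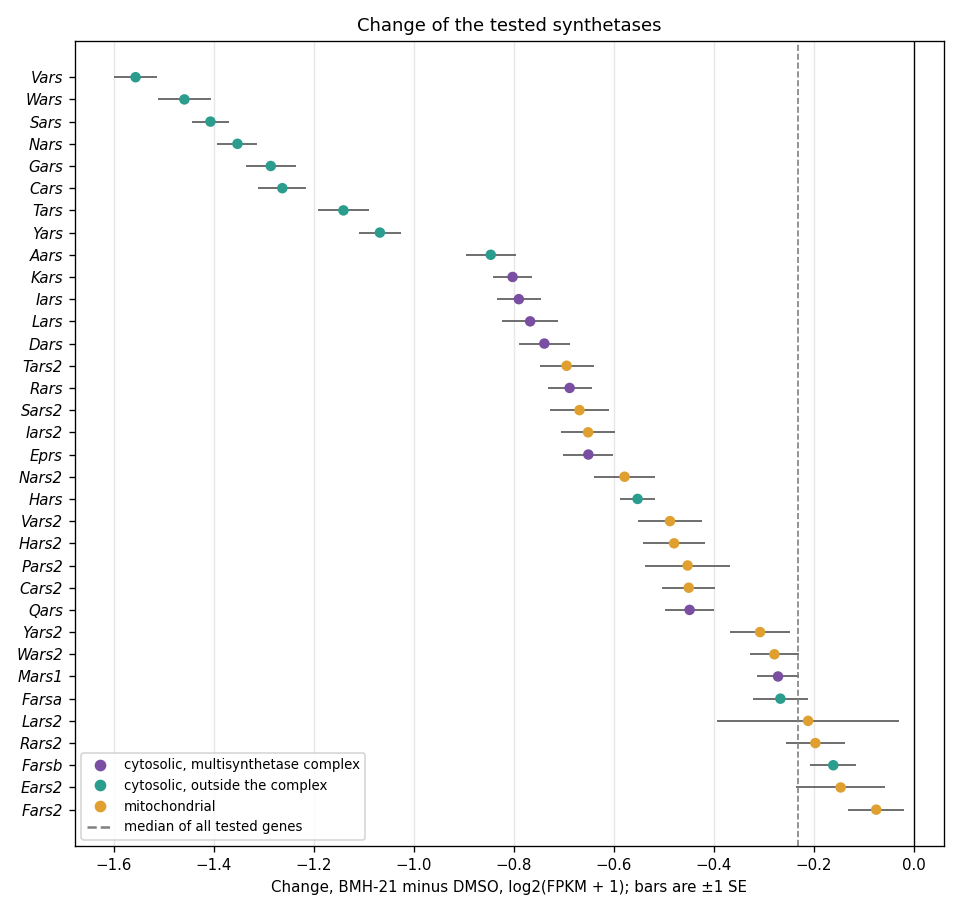
Change of each of the 34 tested synthetases on log2(FPKM + 1), BMH-21 minus DMSO, with bars of 1 SE from limma. Purple points are enzymes of the multisynthetase complex, green points other cytosolic enzymes and orange points mitochondrial enzymes, and the dashed line is the median of all tested genes, −0.23. The 8 changes below −1 are all green, from Vars at −1.56 to Yars at −1.07.

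A list of 13 cytosolic synthetases often described as ATF4 targets was written for this comparison. All 13 were called lower, beside 58.4% of all tested genes, with a median of −1.14 beside −0.23. The 8 largest falls were all among them, as was Mars1, but the list was chosen with earlier results of these data known. The 7 cytosolic members off that list were also all called lower, with a median of −0.55. Under median-ratio, upper-quartile and quantile scaling 12 of the 13 were called lower, beside 34.9%, 39.5% and 35.9% of all genes. The exception each time was Mars1. The difference between the 13 and the 7 was not tested.

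ATF4 binds with C/EBP partners at a composite element. The promoter windows were searched for the core of this element, TGATGNAA, on both strands, where N is any base. Windows run from 250 bases before to 50 after the RefSeq start on GRCm38.p6. Of the cytosolic genes 13 had a window, and 5 of these held the core, Aars, Gars, Iars, Tars and Yars. None of the 14 mitochondrial genes with a window held it. It was in 2.69% of 7703 tested genes with a window, and in 3.97% of all 32851 windows. Cars, Hars, Lars, Nars, Rars, Vars, Wars, Hars2 and Pars2 had no window in the table. The E-box CACGTG, which reads the same on both strands, was in 4 cytosolic windows (Aars, Farsb, Iars and Tars) and 1 mitochondrial window (Ears2), beside 12.6% of tested genes. A match describes the letters only, and whether ATF4 bound there was not measured.

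The matches of Gars, Iars, Yars and Tars are shown, all close to the start. Aars, not shown, held TTGCATCA beginning 112 bases before the start and TTTCATCA just after it. Sequences read 5′ to 3′ on the strand of the gene, with the core or its reverse complement in capitals, from RefSeq on GRCm38.p6. For Tars the stretch runs from the start of the window to the end of the match, and for the others it is 30 bases centred on the match.
Gars, chr6:55037960-55037989, plus strand: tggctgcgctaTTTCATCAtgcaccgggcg
Iars, chr13:49682126-49682155, plus strand: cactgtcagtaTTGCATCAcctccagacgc
Yars, chr4:129189895-129189924, plus strand: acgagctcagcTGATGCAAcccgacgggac
Tars, chr15:11399666-11399908, minus strand: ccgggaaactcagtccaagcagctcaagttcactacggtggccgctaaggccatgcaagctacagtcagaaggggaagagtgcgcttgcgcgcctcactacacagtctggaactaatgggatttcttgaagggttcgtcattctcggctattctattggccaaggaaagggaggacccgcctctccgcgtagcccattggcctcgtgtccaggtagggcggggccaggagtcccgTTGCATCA
Iars and Tars carried TTGCATCA and Yars its reverse complement TGATGCAA, while Gars carried TTTCATCA. The match began 30 bases before the start in Gars and 15 in Tars, and lay just after it in Iars and Yars. Aars, Gars, Iars, Tars and Yars had log2 changes of −0.85, −1.29, −0.79, −1.14 and −1.07. The other 8 cytosolic genes with a window had no match. Of these Sars, Kars, Dars and Eprs had changes of −1.41, −0.80, −0.74 and −0.65, and Qars, Mars1, Farsa and Farsb of −0.45, −0.27, −0.27 and −0.16. The difference between genes with and without a match was not tested.

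The mitochondrial synthetases were at lower levels and their median change was nearer 0, a difference between the sets that was not tested. Of 16 genes, 14 passed the filter, and of these 11 were called lower, 0 higher and 3, Lars2, Ears2 and Fars2, did not pass, beside 58.4% lower and 19.9% higher among all tested genes. The median change was −0.45, and 10 of 14 lay below the all-gene median, 4 of them among the 2437 lowest changes. None of the 14 reached the 2-fold size. The BMH-21 values lay wholly under the DMSO values in 12 of the 14, including Ears2, which the test did not call, beside 59.5% of all tested genes. Their summed level, over all 16, was 56.9, 58.9 and 61.2 FPKM in the DMSO libraries and 44.2, 40.8 and 42.7 FPKM in the BMH-21 libraries. Of the 14, 8 were called lower with median-ratio and with upper-quartile scaling and 7 with quantile normalization, beside 34.9%, 39.5% and 35.9% of all genes, and Fars2 was called higher with the first and the last. Relative to all genes the median was −0.22 as deposited and −0.15 to −0.25 under the 4 scalings. Because the scale adds 1 to each value, changes of genes near 1 FPKM are understated, and with 0.1 added in its place the medians were −0.88 for the cytosolic and −0.60 for the mitochondrial set. As a share of the DMSO mean, the median cytosolic gene kept 54.0% and the median of all 16 mitochondrial genes 62.8%, beside 82.2% over all tested genes.

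The clearest falls of the mitochondrial set were in the threonine, serine, isoleucine and asparagine enzymes. Tars2 (chromosome 3, 95739976 to 95760206) was at 5.07, 5.21 and 5.09 FPKM in the DMSO libraries and 2.88, 2.91 and 2.57 FPKM in the BMH-21 libraries, a log2 change of −0.69 ± 0.054 (SE, limma adjusted p = 1.22e-06). Sars2 (chromosome 7, 28741992 to 28753871) was at 3.23, 2.95 and 3.26 FPKM in the DMSO libraries and 1.495, 1.65 and 1.68 FPKM in the BMH-21 libraries, a log2 change of −0.67 ± 0.058 (SE, limma adjusted p = 2.74e-06). Iars2 was at 2.89, 2.93 and 2.88 FPKM in the DMSO libraries and 1.39, 1.56 and 1.51 FPKM in the BMH-21 libraries and Nars2 at 1.87, 2.08 and 2.06 FPKM in the DMSO libraries and 1.101, 0.929 and 1.01 FPKM in the BMH-21 libraries. These 4 genes kept 50.5% to 54.4% of their DMSO mean, and their calls held under all 4 scalings. Iars2 shares 22.9% of its annotated exonic bases with Rab3gap2 on the opposite strand, and the kit is not stated to mark strand.

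Vars2, Hars2, Pars2 and Cars2, for valine, histidine, proline and cysteine, had log2 changes of −0.49, −0.48, −0.45 and −0.45. Cars2 went from 3.904 ± 0.074 to 2.59 ± 0.14 FPKM and Vars2 from 2.16 ± 0.17 to 1.25 ± 0.11 FPKM (SD, n = 3). Hars2 (chromosome 18, 36783008 to 36792562) lies head to head with Hars, and the pair shares 195 exonic bases on opposite strands. Hars2 went from 3.46 to 2.200 FPKM. Pars2 varied more, at 2.74, 2.08 and 2.69 FPKM in the DMSO libraries and 1.498, 1.75 and 1.41 FPKM in the BMH-21 libraries, without overlap, and its call was lost with quantile normalization (−0.17). Yars2 for tyrosine and Wars2 for tryptophan went from 8.35 to 6.56 FPKM and from 3.94 to 3.08 FPKM, at −0.31 and −0.28. Both calls were lost with median-ratio, upper-quartile and quantile scaling, and Wars2 turned to 0.053 with the last.

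The smallest changes of the mitochondrial set were those of Rars2, Ears2 and Fars2, beside Lars2, whose libraries spread widely. Rars2, the arginine enzyme and the most abundant of the set in DMSO, was at 7.81, 8.88 and 8.92 FPKM in the DMSO libraries and 7.07, 7.13 and 7.74 FPKM in the BMH-21 libraries, a log2 change of −0.20 ± 0.060 (SE, limma adjusted p = 0.012) that was above 0 with 3 of the 4 scalings. Fars2 (chromosome 13, 36117412 to 36726280) for phenylalanine was at 5.398, 5.92 and 6.11 FPKM in the DMSO libraries and 5.63, 5.19 and 5.57 FPKM in the BMH-21 libraries, so the groups overlapped, with a log2 change of −0.075 ± 0.056 (SE, limma adjusted p = 0.24). Ears2 for glutamate was at 1.95, 1.99 and 1.96 FPKM in the DMSO libraries and 1.87, 1.29 and 1.93 FPKM in the BMH-21 libraries, where only BMH-21 library 2 stood clearly below the DMSO libraries, with a log2 change of −0.15 ± 0.089 (SE, limma adjusted p = 0.16). Lars2 (chromosome 9, 123366927 to 123462666) for leucine was at 2.92, 3.31 and 5.08 FPKM in the DMSO libraries and 4.29, 2.61 and 2.47 FPKM in the BMH-21 libraries. DMSO library 3 and BMH-21 library 1 stood above the rest, and the log2 change of −0.21 ± 0.18 (SE, limma adjusted p = 0.31) had the widest error of the 34 tested members. Without BMH-21 library 1 it was −0.40 and called (limma adjusted p = 0.041), the only call of a synthetase that leaving out 1 library changed.

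Aars2 and Mars2, for alanine and methionine, did not reach the filter and were not tested. Aars2 was at 0.863, 0.641 and 0.686 FPKM in the DMSO libraries and 0.536, 0.418 and 0.333 FPKM in the BMH-21 libraries, and Mars2 at 0.666, 0.692 and 0.700 FPKM in the DMSO libraries and 0.401, 0.471 and 0.383 FPKM in the BMH-21 libraries. In both, the 3 BMH-21 values lay under the 3 DMSO values.

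Cytosolic and mitochondrial enzymes for the same amino acid could be set side by side in 17 pairings, counting Eprs against Ears2 and Pars2, and Farsa and Farsb against Fars2. In 14 of the 17 the cytosolic gene kept a smaller share of its DMSO mean than its mitochondrial partner. The ratio of cytosolic to mitochondrial FPKM within a library was lower in every BMH-21 library than in every DMSO library in 9 pairings, higher in 2 and overlapping in 6. How often ratios of other gene pairs separate in this way was not computed. Of single tested genes, 79.8% separated either way, so these counts are not shown to be particular to synthetases. Pairings that share Eprs or Fars2 are not independent. A ratio within a library is the same under any scaling by 1 factor per library.

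The largest shift was in the tryptophan pair, where Wars over Wars2 went from 6.77 ± 0.29 to 2.95 ± 0.12 (SD, n = 3). Cars over Cars2 went from 2.04 ± 0.085 to 1.05 ± 0.055 and Vars over Vars2 from 10.9 ± 0.96 to 5.87 ± 0.30. In these 3 the cytosolic excess shrank without overlap, and for cysteine the 2 genes ended at nearly equal levels. The opposite direction was seen for methionine, where Mars1 over Mars2 went from 32.9 ± 1.3 to 44.7 ± 5.2, and for isoleucine, from 5.37 ± 0.14 to 5.79 ± 0.28. Mars2 was under 1 FPKM in all libraries, which makes its ratio imprecise. Hars over Hars2 went from 17.1 ± 1.2 to 18.2 ± 1.6 and overlapped, as did Farsb over Fars2, from 5.73 ± 0.34 to 5.43 ± 0.17.

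**Figure D3:**
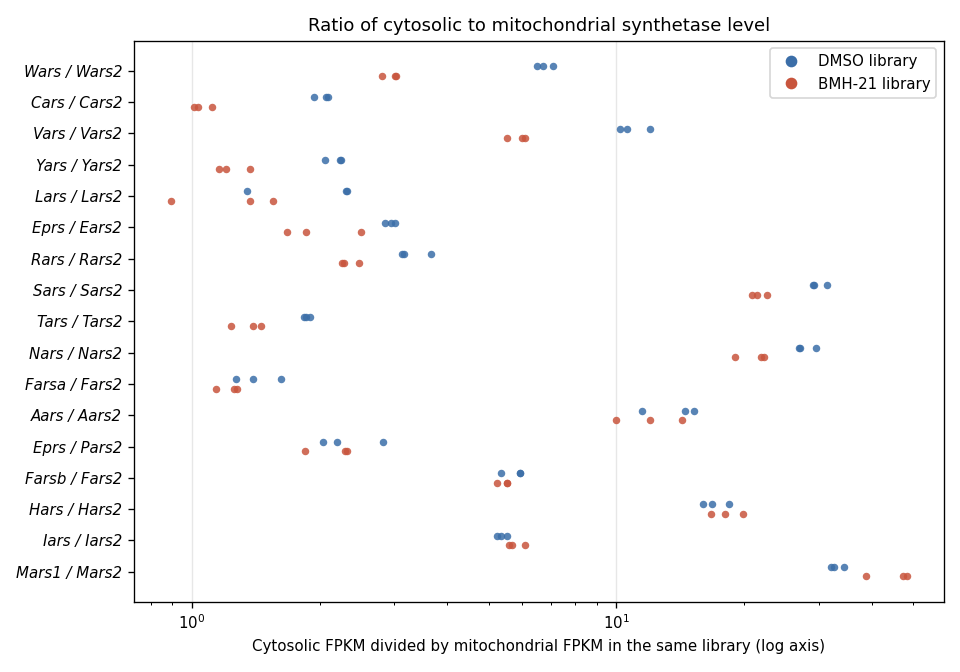
Ratio of cytosolic to mitochondrial synthetase level within each library, on a log axis, for 17 pairings ordered by the size of the shift. Each point is 1 library, blue for DMSO and red for BMH-21. Wars over Wars2, at the top, moved from 6.77 to 2.95, and Mars1 over Mars2, at the bottom, moved the other way, from 32.9 to 44.7.

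The 3 scaffold genes of the multisynthetase complex did not move together. Aimp1, the scaffold that also yields the secreted cytokine EMAPII, was at 20.2, 22.1 and 22.3 FPKM in the DMSO libraries and 10.5, 9.35 and 9.597 FPKM in the BMH-21 libraries, a log2 change of −1.06 ± 0.056 (SE, limma adjusted p = 7.83e-08). Aimp2, which links the arms of the complex, was at 23.2, 22.6 and 22.8 FPKM in the DMSO libraries and 14.7, 12.6 and 12.6 FPKM in the BMH-21 libraries, a log2 change of −0.74 ± 0.059 (SE, limma adjusted p = 1.4e-06). Eef1e1, which encodes the small scaffold AIMP3, was at 27.8, 29.3 and 29.8 FPKM in the DMSO libraries and 40.8, 46.2 and 41.8 FPKM in the BMH-21 libraries, a log2 change of 0.55 ± 0.053 (SE, limma adjusted p = 5.56e-06). Every BMH-21 library of Eef1e1 was above every DMSO library, and it kept its call as higher under all 4 scalings, while Aimp1 and Aimp2 kept theirs as lower. Aimp2 shares 29.4% of its exonic bases with Eif2ak1 on the opposite strand.

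Of 6 genes that correct or recycle the products of synthetases, 4 were called lower, beside 58.4% of all tested genes. The list median was −0.22, beside −0.23 for all tested genes. Aarsd1, which clears serine wrongly loaded onto alanine tRNA, was at 33.4, 35.4 and 32.8 FPKM in the DMSO libraries and 10.8, 9.56 and 10.1 FPKM in the BMH-21 libraries, a log2 change of −1.64 ± 0.052 (SE, limma adjusted p = 3.58e-09), larger than that of any synthetase. It shares 41% of its exonic bases with the same-strand gene Gm27029, so its value is uncertain. Ptrh2, a peptidyl-tRNA hydrolase gene, went from 21.95 to 15.2 FPKM (−0.51). The aminoacyl-tRNA proofreading genes Prorsd1 and Dtd1 were called lower at −0.26 and −0.19, calls lost with median-ratio, upper-quartile and quantile scaling. Dtd2 was not called, at 0.11, and was called higher under those 3 scalings.

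Charged tRNA is carried to the ribosome by the eEF1 factors, and valyl-tRNA synthetase binds them. Of 4 genes 3 were called lower and 1 higher, beside 58.4% and 19.9% of all tested genes. Eef1a1, the carrier itself, went from 1323 ± 44 to 1120 ± 42 FPKM (SD, n = 3), Eef1g from 196 ± 10 to 160.5 ± 1.9 FPKM and Eef1d from 35.5 ± 1.9 to 27.4 ± 1.2 FPKM, changes of −0.24, −0.29 and −0.36. With median-ratio scaling none of these 3 was called, and Eef1a1 and Eef1g were above 0, at 0.055 and 0.0047. With upper-quartile scaling only Eef1d of the 3 was called, lower at −0.13. All 3 were called lower with equal column totals and with quantile normalization. With the last, Eef1a1, Eef1g and Eef1d were at −0.50, −0.38 and −0.21. Eef1b2, an exchange factor subunit, rose from 134 ± 3.5 to 182 ± 4.9 FPKM, a log2 change of 0.44 ± 0.039 (SE, limma adjusted p = 3.14e-06) that held under all 4 scalings.

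Of 10 genes that sense uncharged tRNA or act with or below ATF4, 8 were called lower and 2 higher, beside 58.4% and 19.9% of all tested genes, with a median of −0.52 beside −0.23. Atf4 itself was at 322, 353 and 346 FPKM in the DMSO libraries and 197, 175 and 199 FPKM in the BMH-21 libraries, a log2 change of −0.84 ± 0.057 (SE, limma adjusted p = 4.83e-07). Asns, the asparagine synthetase and a standard ATF4 target, was at 43.9, 42.3 and 42.1 FPKM in the DMSO libraries and 16.5, 15.8 and 14.9 FPKM in the BMH-21 libraries, a log2 change of −1.39 ± 0.045 (SE, limma adjusted p = 4.19e-09), close to that of Nars, which loads asparagine onto tRNA. Trib3, a pseudokinase target of ATF4, had the largest fall of the list at −2.07. Ddit3, Chac1 and Sesn2 were lower, at −0.65, −0.59 and −0.44. The GCN2 kinase gene Eif2ak4 was at −0.43 and its co-activator Gcn1 at −0.21, calls lost with quantile normalization for both and with median-ratio and upper-quartile scaling for Gcn1. Impact, which restrains GCN2, rose from 6.74 ± 0.56 to 10.6 ± 0.69 FPKM, a log2 change of 0.59 ± 0.064 (SE, limma adjusted p = 1.5e-05). Atf3, a stress factor gene that other signals also induce, rose from 123 ± 3.7 to 204 ± 6.8 FPKM, a log2 change of 0.72 ± 0.041 (SE, limma adjusted p = 1.39e-07). Both rises were called under all 4 scalings.

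Other steps of the tRNA cycle had medians near that of all genes. Among all tested genes 58.4% were called lower and 19.9% higher. Of 13 genes of tRNA transcription and export 11 were tested, 9 were called lower and 1 higher, with a median of −0.30. Ssb, which encodes the La protein that binds new polymerase III transcripts, went from 38.6 ± 1.4 to 14.02 ± 0.60 FPKM (SD, n = 3), a log2 change of −1.40 ± 0.046 (SE, limma adjusted p = 4.41e-09). The tRNA exporter Xpot went from 26.8 to 16.6 FPKM (−0.66) and the TFIIIC subunit Gtf3c5 from 5.398 to 2.54 FPKM (−0.85), while the TFIIIC subunit Gtf3c6 rose from 17.7 to 25.6 FPKM (0.51). Lower calls of this list were 4, 5 and 4 with median-ratio, upper-quartile and quantile scaling, beside 34.9%, 39.5% and 35.9% of all genes. Xpo5, Gtf3c4, Gtf3c2, Brf1, Maf1 and Brf2 were called lower at −0.36 to −0.21, and Bdp1 was not called. Gtf3c1 and Gtf3c3 did not pass the filter.

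For comparison, 58.4% of all tested genes were called lower and 19.9% higher, or 34.9% and 38.6% with median-ratio scaling. Of 22 tested genes of tRNA end processing and splicing 16 were called lower and 2 higher, with a median of −0.31, or 9 lower and 5 higher with median-ratio scaling. The 4 with the smallest p were the ribonuclease P subunit Pop4, from 6.21 to 2.73 FPKM, the tRNA ligase complex genes Ddx1, from 17.5 to 8.85 FPKM, and Rtcb, from 26.1 to 13.3 FPKM, and the splicing endonuclease subunit Tsen34, from 30.4 to 18.1 FPKM. Of 53 tested tRNA modification genes 30 were called lower, near the share of all genes, and 7 higher, with a median of −0.24. With median-ratio scaling 18 of 52 were lower and 18 higher. The 4 with the smallest p were Qtrt1, which inserts queuosine, from 18.8 to 7.68 FPKM, Osgep, which acts in threonylcarbamoyl modification, from 24.8 to 12.6 FPKM, the methyltransferase Ftsj1, from 3.295 to 1.46 FPKM, and the cytosine methyltransferase Nsun2, from 33.7 to 21.6 FPKM. Of 26 genes of mitochondrial tRNA maturation and translation factors 19 were called lower and 2 higher, with a median of −0.28, or 8 lower and 5 higher of 24 with median-ratio scaling. The 4 with the smallest p were the elongation factor Tufm, from 45.3 to 25.3 FPKM, Gatb, a subunit of the amidotransferase that makes mitochondrial glutaminyl-tRNA, from 9.35 to 5.33 FPKM, the tRNA methyltransferase Trmt2b, from 8.38 to 5.59 FPKM, and the tRNA 3′ processing enzyme Elac2, from 4.38 to 2.71 FPKM. These 12 genes were called lower under all 4 scalings.

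**Figure D4:**
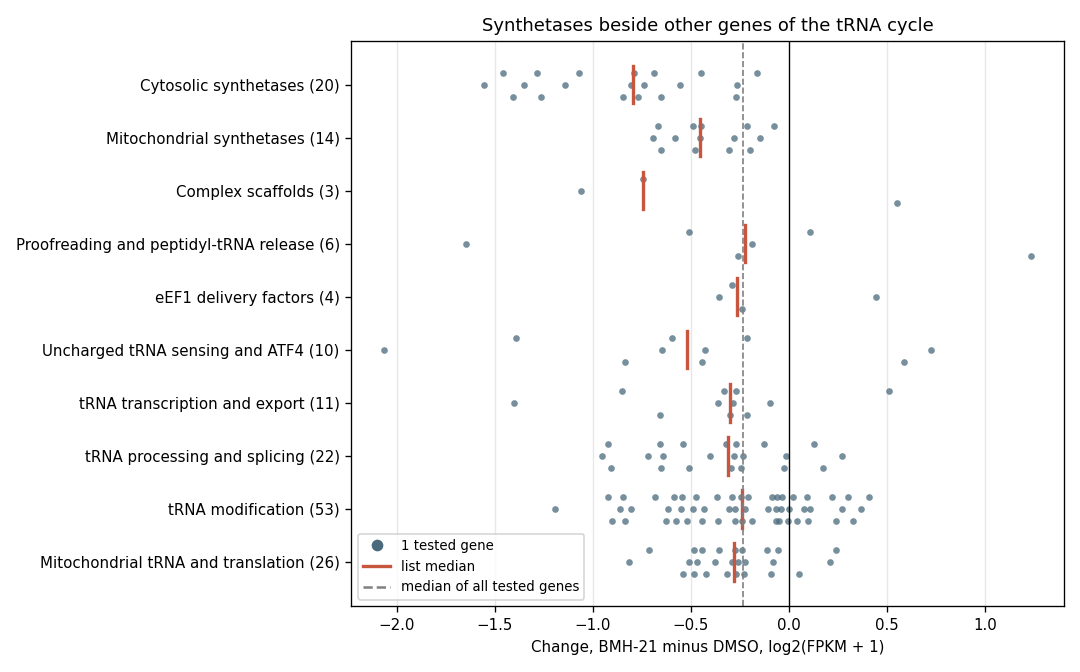
Change of each tested gene on log2(FPKM + 1), BMH-21 minus DMSO, in 10 lists of the tRNA cycle, with the number tested in brackets. Each point is 1 gene (points are spread vertically only for visibility), red bars are list medians and the dashed line is the median of all tested genes, −0.23. The cytosolic synthetases have a median of −0.80, and those of tRNA modification and mitochondrial translation lie at −0.24 and −0.28.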

How the data were processed

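The table deposited by the authors holds FPKM values for 19233 genes in 6 libraries. No label names the unit, which was inferred from the values. Trimmomatic 0.38, HISAT2, SAMtools and mm10 are listed per the submitters' processing notes, while how reads were counted is not given in the sources used here. Per the labels, libraries were made after oligo-dT enrichment with a kit not stated to mark strand, and DMSO replicate 2 is labelled as polyadenylated RNA where the other 5 are labelled total RNA. The way reads were split between overlapping genes is not given, so overlaps stated beside genes leave their values uncertain.

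Groups came from sample titles. After a log2(FPKM + 1) transform, limma 3.58.1 (R 4.3.3, trend on) tested the 9748 genes that reached 1 FPKM in 3 or more libraries, and p-values were adjusted over all of them by the Benjamini-Hochberg method at 0.05. Lists were described by counts and medians without a set test. Each FPKM is relative to its own library, so rises of abundant genes lower the rest. Whether replicates were separate cultures is not stated, and p-values then cover only the spread between these libraries, which may be technical. On simulated data with 50 of 9748 genes changed at each size, the fit recovered 94% at 1.2-fold and 100% at 1.5-fold, and called 12 of 9548 unchanged genes. The simulated noise followed the variance trend that the fit assumes, and most genes were unchanged. These rates therefore do not carry over to the real data, where 78.3% of tested genes were called.

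Depth was estimated from steps between low values of genes with 1 annotated transcript. Of 1173 to 1561 such values per library of at most 20 reads, 78.6% to 81.2% came within 0.01 of a whole number of reads, so no count model was fitted. Positions and exon overlaps came from GENCODE M21 on GRCm38, the assembly of mm10, where Mars1 is listed as Mars, and promoter windows from RefSeq on GRCm38.p6. Alternatives covered the pseudocount, the filter, 4 scalings, the trend, a replicate block and leaving out each library, and the fit without DMSO libraries 1 and 2 was chosen after seeing the data. Any synthetase could be named, all members of lists of up to 13 genes, and up to 4 of longer lists by ascending p. The members and lists were chosen with earlier results of these data known. Ashwin and Tp53rk of the tRNA lists had no row. Some items are not reported here.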

Additional observations from a re-analysis of the deposited data

How the results depend on the processing

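With 34 synthetases tested, the pseudocount of 0.1, no filter, no intensity trend and the replicate block changed no call or direction of a synthetase. Leaving out each DMSO library in turn, or BMH-21 library 2 or 3, changed none either. With no filter Aars2 and Mars2 were also tested and called lower, making 13 of 16 mitochondrial genes lower, beside 33.5% of all genes. Numbers 1, 2 and 3 shared by the groups correlated at −0.11, −0.094 and −0.064 in their deviations, and unlike numbers at 0.0046 to 0.097. These values show no positive pairing by number, but cannot settle whether the libraries were paired. With the replicate block 20 cytosolic and 11 mitochondrial genes were called lower, beside 57.5% of all tested genes. Scaling changed most. Directions turned with median-ratio scaling for Farsb (0.13), Mars1 (0.010), Ears2 (0.044), Fars2 (0.18), Lars2 (0.015) and Rars2 (0.066), with upper-quartile scaling for Farsb (0.069), Ears2 (0.0064), Fars2 (0.13) and Rars2 (0.014), and with quantile normalization for Farsa (0.012), Ears2 (0.13), Fars2 (0.24), Lars2 (0.10), Rars2 (0.079) and Wars2 (0.053). With column totals made equal, Ears2 (−0.22) and Fars2 (−0.18) were called lower. All genes called lower numbered 5690 as deposited, 3386 with median-ratio scaling, 3491 with quantile normalization and 3465 with a minimum of 5 FPKM, which tests fewer genes. All genes called higher numbered 1938, and 3744, 3367 and 3525 with median-ratio, upper-quartile and quantile scaling. With median-ratio scaling 1 cytosolic and 1 mitochondrial synthetase were called higher, and with quantile normalization 7 mitochondrial ones lower and 1 higher. With the 5 FPKM minimum 4 mitochondrial genes were tested and 3 called lower, beside 56% of all genes. Relative to all genes the cytosolic median of −0.56 was −0.60 with a pseudocount of 0.1, −0.76 with no filter, −0.60 with the 5 FPKM minimum and −0.53 with median-ratio scaling. The mitochondrial median of −0.22 was −0.33 with a pseudocount of 0.1, −0.34 with no filter, −0.055 with the 5 FPKM minimum and −0.31 without DMSO libraries 1 and 2. The cause of these shifts was not tested beyond the number of genes tested. Leaving out each library gave cytosolic medians of −0.58 to −0.56 and mitochondrial medians of −0.24 to −0.19. Depth limits the lowest members: Aars2 and Mars2, under 1 FPKM, were not tested.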

Other observations

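The enzymes for phenylalanine had the smallest or near smallest changes in each compartment, an observation made after the values were seen. Farsb kept 89.1% of its DMSO mean, Farsa 81.0% and Fars2 94.0%, beside medians of 54.0% in the cytosolic and 62.8% in the mitochondrial set. The mitochondrial enzyme is a single chain and the cytosolic enzyme has 2 kinds of subunit, so the 3 genes are separate. On quantile-normalized values Farsa and Fars2 were above 0, at 0.012 and 0.24, and Farsb was at −0.022.

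Methionine was the other amino acid whose cytosolic enzyme changed little. Mars1 kept 82.1% of its DMSO mean, beside 82.2% for the median tested gene, while its mitochondrial partner Mars2 kept 61.0% at levels under 1 FPKM.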
